A study of Mus musculus with 81 samples.

Results

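The 9 genes described here encode the inhibitors that hold a cell in the G1 phase of the cell cycle and the retinoblastoma family proteins on which they act. They are Cdkn2a, Cdkn2b, Cdkn2c and Cdkn2d (the INK4 family, with ARF made from Cdkn2a as well), Cdkn1b and Cdkn1c (the CIP/KIP members p27 and p57), and Rb1, Rbl1 and Rbl2 (pRb, p107 and p130). They were chosen by symbol, and 9 of 9 were found among the 51826 genes of the table. Expression had been measured by RNA sequencing in 81 libraries from 40 mice of C57BL/6 x 129S4Sv/Jae background. Every mouse, controls included, carried Plk4 at Col1a1, rtTA at Rosa and centrin-GFP at Rosa. Plk4 encodes a kinase needed to copy centrioles, and rtTA switches on genes under its control when doxycycline is given. The untreated p53-/- group held thymic lymphomas of 10 mice (23 libraries) that received no doxycycline. The treated p53-/- group held lymphomas of 9 mice (18 libraries) and the treated p53+/- group those of 12 mice (31 libraries), and treated mice had been given doxycycline for 2 weeks from 30 days of age. Controls were normal thymuses of 8 p53+/+ mice without doxycycline, and a further normal thymus was p53+/- (mouse 819). In 13 tumours 4 or 5 regions had been biopsied separately (54 libraries). The age at sampling and the cells in which each transgene is active are not given in the sources used here, and neither untreated p53+/- lymphomas nor treated normal thymuses were analysed here, so p53 dose and doxycycline cannot be told apart in the treated p53+/- lymphomas set against the normal thymuses. The study asked how aneuploidy, an unbalanced number of chromosomes, affects the growth of tumours.

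INK4 proteins bind Cdk4 and Cdk6 and keep them from pairing with D-type cyclins, while p27 and p57 bind complexes of cyclins with Cdk2 and other kinases. Active kinases phosphorylate the pocket proteins pRb, p107 and p130, which then release E2F factors, and E2F factors switch on genes for DNA replication. The Cdkn2a gene makes a pair of unrelated proteins from separate starts and a shared exon, p16INK4a, which acts on Cdk4 and Cdk6, and p19ARF, which binds Mdm2 and so stabilises p53. Both p53 and pRb are also known to restrain the Cdkn2a locus.

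On build GRCm38 (the same assembly as mm10), Cdkn2a lies on the minus strand of chromosome 4 from 89274471 to 89294653. The ARF transcript starts with an exon at 89294334 to 89294653 and the p16INK4a transcript with an exon at 89281986 to 89282192, and the transcripts share exon 2 at 89276645 to 89276985. The deposited values are per gene, so they add both products together and cannot say which start was used. The 300 bases around each start given by RefSeq, from 250 before to 50 after it on the minus strand, are shown because the level of this gene separated lymphoma from thymus more than that of any other member, and the window of Rbl1, the other member higher in the lymphomas of all 3 groups, stands beside them. The windows are chr4:89294570-89294869 for ARF, chr4:89282143-89282442 for p16INK4a and chr2:157204485-157204784 for Rbl1 (all minus strand, written 5′ to 3′, RefSeq sequences of GRCm38.p6). RefSeq places the ARF start at 89294619, inside the ARF exon given above, and the p16INK4a start at the first base of its exon. Capitals mark E2F-type words of 8 bases.
Cdkn2a, ARF start: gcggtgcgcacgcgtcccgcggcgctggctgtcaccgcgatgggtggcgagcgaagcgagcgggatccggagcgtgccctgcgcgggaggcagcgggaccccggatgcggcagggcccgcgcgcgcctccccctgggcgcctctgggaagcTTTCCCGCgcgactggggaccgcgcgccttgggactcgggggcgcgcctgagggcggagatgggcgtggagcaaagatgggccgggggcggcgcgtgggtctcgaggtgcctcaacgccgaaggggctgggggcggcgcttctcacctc
Cdkn2a, p16INK4a start: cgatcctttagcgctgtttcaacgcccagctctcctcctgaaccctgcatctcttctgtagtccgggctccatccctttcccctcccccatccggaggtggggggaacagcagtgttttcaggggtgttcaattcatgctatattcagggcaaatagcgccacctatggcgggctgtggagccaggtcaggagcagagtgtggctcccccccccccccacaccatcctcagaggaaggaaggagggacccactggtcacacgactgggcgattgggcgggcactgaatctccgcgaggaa
Rbl1 start: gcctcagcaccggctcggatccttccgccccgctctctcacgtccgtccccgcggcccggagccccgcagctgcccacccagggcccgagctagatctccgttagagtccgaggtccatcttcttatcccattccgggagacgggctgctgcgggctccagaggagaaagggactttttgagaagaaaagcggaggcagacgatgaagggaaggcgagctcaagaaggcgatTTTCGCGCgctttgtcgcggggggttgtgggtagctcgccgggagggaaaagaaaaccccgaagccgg
The words searched on both strands were TTTCGCGC, TTTCCCGC, TTTGGCGC and TTTGCCGC. The ARF window held TTTCCCGC beginning 99 bases before the RefSeq start and the Rbl1 window held TTTCGCGC beginning 18 bases before it, both on the strand of the gene. Such a word stood in 2 of the 9 windows that the table gives for 7 of the members and in 744 of all 32851 windows (2.26%). The ARF window held 45 CG pairs in its 300 bases and the p16INK4a window 12, against a median of 7 over all windows. A match is a run of letters and not a measured binding site.

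The libraries held 1.03 to 26.87 M counts (M for mega). Levels are given as CPM, the count relative to the library total, per mouse, with the biopsies of a tumour added and TMM scaling between mice, and a gene was called when its adjusted p (edgeR's quasi-likelihood test, Benjamini-Hochberg over all genes tested) was under 0.05. Of the 24 alternatives recomputed for each fold change against normal thymus, 2 were exact permutation tests (on log2 CPM and relative to the chromosome), and these were held to an unadjusted p under 0.05. The labels tie libraries to mice, so each mouse counted once. Trp53, the gene named in the genotypes, had a median of 96.2 CPM in normal thymus (67.9 to 107.1) and of 45.4 (14.1 to 92.8), 44.3 (25.6 to 74.2) and 39.9 CPM (17.7 to 70.95) in the untreated p53-/- group and the treated p53-/- and p53+/- groups, so each range overlapped that of normal thymus. The labels do not say which part of Trp53 is deleted, so counts per gene check the genotype only loosely. By label 9 of 10 untreated p53-/- mice were male. In the treated p53-/-, treated p53+/- and normal p53+/+ groups 4 of 9, 3 of 12 and 4 of 8 were male. Levels, counts of mice and exact permutation tests took no account of sex. Sex genes went against the labelled sex in 3 lymphoma mice. A normal thymus (mouse 387) stood apart, with T lineage markers (7 genes) summing to 840 CPM against 3925 to 5734 in the other 7 and B lineage markers (5 genes) to 1169 against 68.6 to 100 CPM. In 1 untreated p53-/- tumour (mouse 881) the T lineage sum was 146.5 CPM and the B lineage sum 2724 CPM, whereas the median T lineage sum of its group was 2748 CPM. Thymic epithelium markers (7 genes) had a median sum of 1263 CPM in normal thymus and of 59.9, 48.1 and 36.5 CPM in the 3 lymphoma groups in the order above, fat markers (5 genes) summed to 618.5 to 8892 CPM in p53+/+ normal thymus and to at most 184.2 CPM in a lymphoma, while the p53+/- thymus had 97.5 CPM, and no marker of the 8 lists was at 0 in every mouse of a group. The part of these cells in the differences from normal thymus was not tested. In bulk tissue, fewer cells of a type and less RNA per cell cannot be told apart.

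Counted together, 2 members were called higher (Cdkn2a, Rbl1) and 2 lower (Cdkn2d, Cdkn1b) in untreated p53-/- lymphomas, beside 23.2% higher and 17.5% lower of 17843 genes tested. For treated p53-/- tumours 2 were higher (Cdkn2a, Rbl1) and 2 lower (Cdkn1b, Rbl2), beside 25.4% higher and 26.7% lower. The treated p53+/- group had 3 higher (Cdkn2a, Cdkn2c, Rbl1) and 2 lower members (Cdkn1b, Rbl2), beside 25.6% higher and 25.3% lower. The share of members called was near that of all genes in each comparison. Without normal mouse 387 the members called numbered 4, 5 and 5, and without mouse 881 they numbered 4, 4 and 5. The median log2 fold change of the 9 members was -0.35, -0.10 and -0.26. The 3 comparisons share the same 8 normal thymuses.

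**Figure D1:**
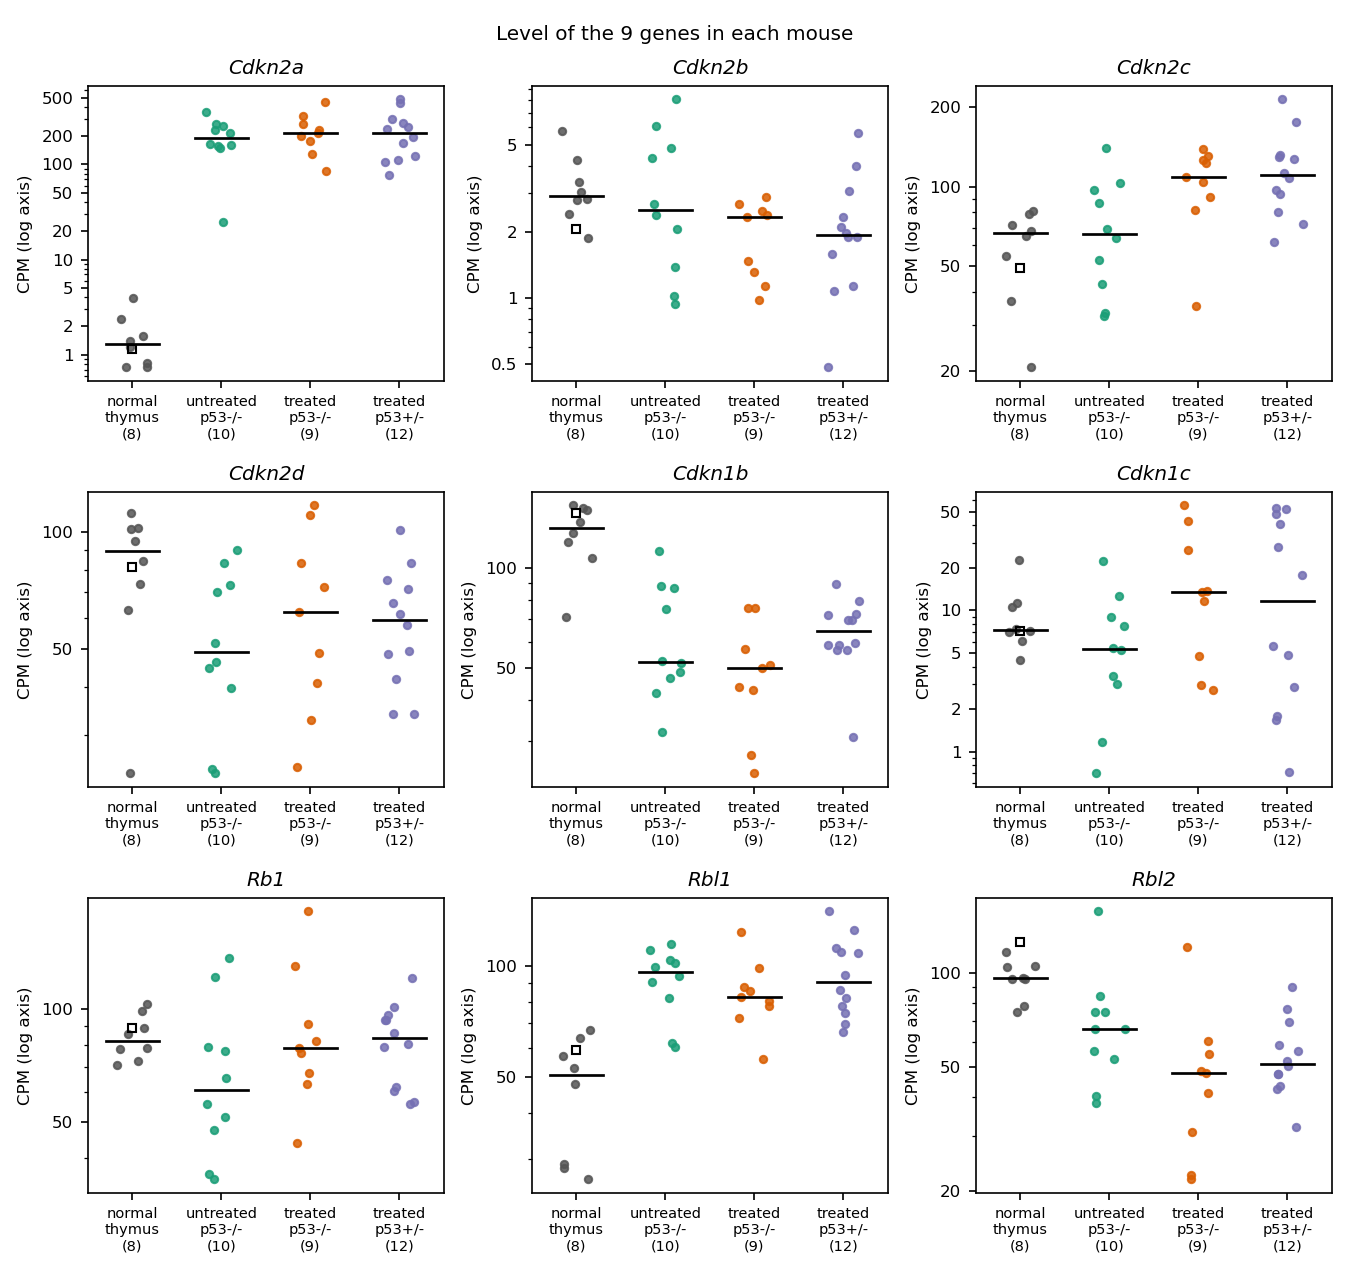
CPM per mouse on a log axis for each of the 9 genes. Points are mice, horizontal lines medians, and the open square in each panel is the single p53+/- normal thymus. Cdkn2a lies between 0.741 and 3.97 CPM in the normal thymuses and between 24.9 and 482 CPM in the lymphomas, while Rb1 ranges overlap.

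Cdkn2a was low in every normal thymus and high in every lymphoma. In normal thymus the lowest value was 0.741, the median 1.31 and the highest 3.97 CPM, the last in mouse 387, and the p53+/- thymus had 1.14 CPM. Untreated p53-/- lymphomas had 24.9, 190.0 and 358 CPM (lowest, median, highest), treated p53-/- lymphomas 85.7, 216.0 and 452 CPM, and treated p53+/- lymphomas 77.7, 215.8 and 482 CPM. The ranges did not overlap, and all 31 lymphomas were above all 8 normal thymuses. The log2 fold change was 6.89 (SE 0.53, edgeR adjusted p = 9.68e-12), 7.03 (SE 0.51, edgeR adjusted p = 1.6e-12) and 6.98 (SE 0.51, edgeR adjusted p = 1.21e-12), or 118-fold, 131-fold and 126.5-fold. Without mouse 387 these became 7.25, 7.51 and 7.54. As a log2 ratio to normal thymus, the gene stood on average 6.60, 6.80 and 6.60 above the median of the other genes of chromosome 4 in the 3 lymphoma groups. Of the lymphomas, mouse 98 (untreated p53-/-) had the lowest value at 24.9 CPM, and the next in its group had 148 CPM.

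Cdkn2b, which encodes p15INK4b and lies next to Cdkn2a at 89306299 to 89311039 on the same strand, had no called change. It was scarce throughout, with 1.88, 2.93 and 5.76 CPM (lowest, median, highest) in normal thymus. Medians were 2.53 CPM in untreated p53-/-, 2.335 CPM in treated p53-/- and 1.93 CPM in treated p53+/- lymphomas, and all 3 ranges overlapped that of normal thymus. Of all 31 lymphomas 2 lay above every normal thymus (5 without mouse 387) and 11 below every one. Its log2 fold changes were -0.07 (SE 0.43), -0.93 (SE 0.41) and -0.74 (SE 0.39), with edgeR adjusted p = 0.911, 0.0576 and 0.111. The 95% intervals ran from -0.91 to 0.77, -1.73 to -0.13 and -1.50 to 0.02. The value in treated p53-/- lymphomas passed under 7 of 24 alternatives (2 of them exact tests with an unadjusted p), among them DESeq2, limma voom on single biopsies and leaving out normal mouse 624 (-1.01, edgeR adjusted p = 0.0464), whereas without normal mouse 387 it was -0.63 (edgeR adjusted p = 0.219). That in treated p53+/- lymphomas passed under 2 of 24. These were limma voom (-0.95, limma adjusted p = 0.0381) and the exact test relative to the chromosome (-1.19, unadjusted permutation p = 0.00436). Per kb of exon, the median lymphoma had 184 CPM for Cdkn2a and 1.52 CPM for Cdkn2b.

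The locus around the pair was looked at through 5 neighbours on chromosome 4. Mtap, at 89137122 to 89181081, encodes the methionine salvage enzyme next to Cdkn2a and had a median of 25.8 CPM in normal thymus and of 107.7, 129.6 and 147.0 CPM in the 3 lymphoma groups. Its log2 fold change was 2.26 (SE 0.33), 2.24 (SE 0.31) and 2.54 (SE 0.32), with edgeR adjusted p = 1.07e-06, 3.94e-07 and 3.77e-08. Focad, at 88094629 to 88411011, rose by 1.64, 1.41 and 1.71 on the same scale. Klhl9, which lies between these genes, was not called (log2 fold change -0.09, 0.32 and 0.31), nor were Hacd4 and Dmrta1. Thus 2 of 5 neighbours were called higher and 0 lower in each comparison, with medians of 1.64, 0.32 and 0.56 beside 0.08, -0.04 and -0.00 over all genes tested, of which 23.2%, 25.4% and 25.6% were called higher. Dmrta1 was scarce, with medians of 1.09 CPM in normal thymus and 0.0884, 0.144 and 0.142 CPM in the lymphoma groups. Its highest values there were 37.2, 0.993 and 25.99 CPM. Its fold change can thus rest on few mice, and a median over 5 genes can move with it.

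Of the other INK4 genes, Cdkn2c was called higher in treated p53+/- lymphomas and Cdkn2d lower in untreated p53-/- lymphomas. Cdkn2c encodes p18INK4c, an inhibitor known to limit the division of lymphocytes. It had 20.7, 66.5 and 80.7 CPM (lowest, median, highest) in normal thymus and 32.3, 66.3 and 140.4 CPM in untreated p53-/- lymphomas, of which 6 of 10 lay within the range of normal thymus. Treated p53-/- lymphomas had 35.4, 109 and 138 CPM and treated p53+/- lymphomas 61.5, 111 and 214 CPM. Of these, 8 of 9 and 9 of 12 lay above the highest normal thymus, against 4 of 10 untreated tumours. The log2 fold change was 0.21 (SE 0.28, edgeR adjusted p = 0.572), 0.62 (SE 0.28, edgeR adjusted p = 0.0592) and 0.76 (SE 0.27, edgeR adjusted p = 0.0177). The call in the treated p53+/- lymphomas was kept under 24 of 24 alternatives (2 of them exact tests with an unadjusted p) and ended when an absolute log2 fold change of at least 1 was also required, and the value in treated p53-/- lymphomas passed under 9 of 24 (1 of them an exact test with an unadjusted p), among them leaving out normal mouse 387 (0.75, edgeR adjusted p = 0.0376) or 818 (0.70, edgeR adjusted p = 0.0407). The difference of treated p53+/- and untreated p53-/- lymphomas itself was 0.51 (95% interval -0.02 to 1.04, edgeR adjusted p = 0.794). That of treated and untreated p53-/- lymphomas was 0.38 (95% interval -0.17 to 0.93, edgeR adjusted p = 0.621).

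Cdkn2d encodes p19INK4d and had 24.1, 89.5 and 111.5 CPM (lowest, median, highest) in normal thymus, the lowest being mouse 387 and the next 63.1 CPM. Medians in the lymphomas were 49.2, 62.1 and 59.5 CPM, and the ranges overlapped. It was called lower in untreated p53-/- lymphomas (log2 fold change -0.76, SE 0.30, edgeR adjusted p = 0.0383), and this call ended under 11 of 24 alternatives, among them leaving out normal mouse 615, 624, 787, 818 or 980. Without mouse 387, 18 of 31 lymphomas lay below every normal thymus, against 1 with it. Leaving out 1 normal thymus moved the fold change between -0.82 and -0.68. In the treated groups it was -0.49 (SE 0.29, edgeR adjusted p = 0.162) and -0.58 (SE 0.28, edgeR adjusted p = 0.0837), and the last passed without scaling factors (-0.76, edgeR adjusted p = 0.0199) and with limma voom (-0.53, limma adjusted p = 0.0495).

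**Figure D2:**
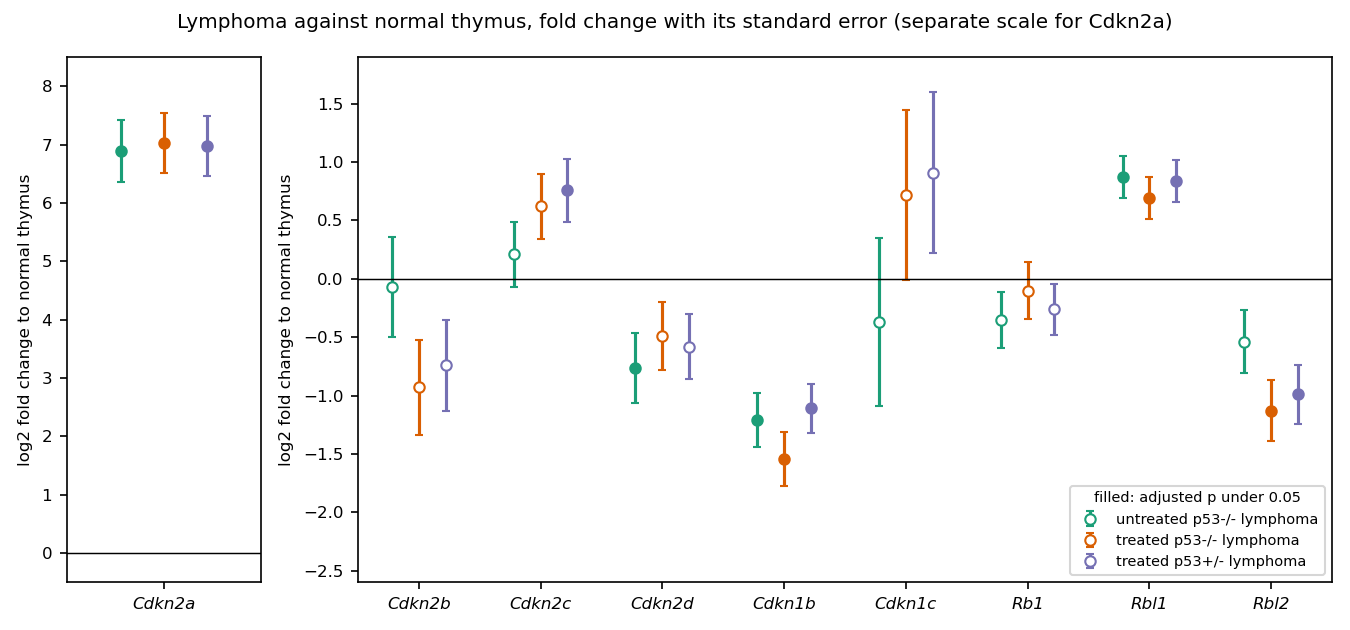
Log2 fold change of each gene in the 3 lymphoma groups against the 8 normal thymuses, with its standard error. Filled points passed the test (adjusted p under 0.05). Cdkn2a has its own axis and lies near 7, Cdkn1b is below 0 and Rbl1 above 0 in all 3 groups, and Cdkn1c has the widest errors.

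Of the CIP/KIP pair, Cdkn1b fell in all 3 lymphoma groups. Normal thymus had 71.4, 132 and 155 CPM (lowest, median, highest), with mouse 387 lowest and the others at or above 107.6 CPM. Untreated p53-/- lymphomas had 32.1, 52 and 113 CPM, treated p53-/- lymphomas 24.0, 49.8 and 75.9 CPM, and treated p53+/- lymphomas 30.8, 64.4 and 89.6 CPM. Below the lowest normal thymus lay 6 of 10, 7 of 9 and 8 of 12 tumours, so the groups overlapped, and no lymphoma was above the highest normal thymus. Without mouse 387, 9 of 10, 9 of 9 and 12 of 12 lay below the lowest normal thymus. The log2 fold change was -1.21 (SE 0.23, edgeR adjusted p = 5.35e-05), -1.54 (SE 0.23, edgeR adjusted p = 9.02e-07) and -1.11 (SE 0.21, edgeR adjusted p = 4.4e-05), which is 2.32-fold, 2.90-fold and 2.16-fold lower. All 3 calls were kept under 24 of 24 alternatives (2 of them exact tests with an unadjusted p). The other genes of chromosome 6 were low as well, with medians of -0.26, -0.38 and -0.35 over mice, and against them, in a comparison added after the values were seen, Cdkn1b stood lower by 0.89, 1.12 and 0.75 than in normal thymus (exact 2-sided permutation p = 0.00338, 0.000411 and 0.00102, unadjusted).

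The 5 genes listed for the turnover and transcription of p27 were measured beside it. Skp2, the ubiquitin ligase subunit that marks p27 for destruction, rose by 1.33 (SE 0.28), 2.15 (SE 0.29) and 2.04 (SE 0.28) on the log2 scale, and its cofactor Cks1b by 1.18, 1.49 and 1.65 (edgeR adjusted p at most 0.000263). Cul1, the scaffold of that ligase, rose by 0.74, 0.54 and 0.71. Foxo3, a transcription factor that can switch on Cdkn1b, fell by 0.64 (SE 0.20, edgeR adjusted p = 0.00871) in treated p53-/- and by 0.54 (SE 0.19, edgeR adjusted p = 0.0167) in treated p53+/- lymphomas. It was not called in untreated p53-/- lymphomas, and Foxo1, the last of the 5, was not called in any group. Counts of called genes were 3 higher and 0 lower in untreated p53-/- lymphomas and 3 higher and 1 lower in both treated groups, beside 23.2%, 25.4% and 25.6% higher and 17.5%, 26.7% and 25.3% lower over all genes. The protein p27 was not measured.

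Cdkn1c, an imprinted gene for p57, was the most variable member among tumours. It had 4.43, 7.25 and 22.8 CPM (lowest, median, highest) in normal thymus, 0.703, 5.29 and 22.2 CPM in untreated p53-/-, 2.72, 13.6 and 55.35 CPM in treated p53-/- and 0.717, 11.7 and 52.7 CPM in treated p53+/- lymphomas. Over all 31 lymphomas 8 lay above every normal thymus and 10 below every one, and without mouse 387 these counts were 14 and 10. The SD of log2 CPM was 0.71 in normal thymus (0.46 without mouse 387) and 1.48, 1.58 and 2.22 in the lymphoma groups. Its log2 fold changes of -0.37 (SE 0.72), 0.72 (SE 0.73) and 0.91 (SE 0.69) did not pass the test (edgeR adjusted p = 0.716, 0.420 and 0.273), and the 95% intervals of -1.78 to 1.04, -0.71 to 2.15 and -0.44 to 2.26 reach well to either side of 0. The highest normal value was that of mouse 387, whose stroma and vessel marker sum was 1922 CPM against 207.8 to 333 CPM in the other 7, and the part of those cells in it was not tested. Exons of Cdkn1c overlap those of the antisense gene Gm44732, so part of its counts is uncertain, and Gm44732 itself had 40 counts over all libraries against 17802 for Cdkn1c.

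Rb1, the retinoblastoma gene on chromosome 14 (73183673 to 73325822, minus strand), had no called change against normal thymus but spread more widely among tumours. Normal thymus had 71.04, 82.2 and 103 CPM (lowest, median, highest), untreated p53-/- lymphomas 35.1, 60.6 and 137 CPM, treated p53-/- lymphomas 43.9, 78.6 and 182 CPM, and treated p53+/- lymphomas 55.6, 83.4 and 121 CPM. Of all 31 lymphomas 5 lay above and 13 below every normal thymus, and the highest was mouse 869. The SD of log2 CPM was 0.20 in normal thymus and 0.66, 0.60 and 0.37 in the lymphoma groups. Log2 fold changes were -0.35 (SE 0.24), -0.10 (SE 0.24) and -0.26 (SE 0.22), with edgeR adjusted p = 0.246, 0.742 and 0.349 and 95% intervals of -0.82 to 0.12, -0.57 to 0.37 and -0.69 to 0.17. No lymphoma lacked the transcript, and the lowest count in a lymphoma mouse was 463. Exons of Rb1 overlap those of Rcbtb2 (488 bases) and Lpar6 (408 bases) on the opposite strand, and whether counting used strand is not given in the sources used here, so a part of its counts is uncertain.

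The 2 relatives of Rb1 moved in opposite directions. Rbl1 encodes p107, which accumulates in dividing cells and is itself an E2F target. It had 26.5, 50.6 and 67.03 CPM (lowest, median, highest) in normal thymus, 60.5, 96.8 and 115 CPM in untreated p53-/-, 55.97, 82.3 and 124 CPM in treated p53-/- and 66.5, 90.7 and 141 CPM in treated p53+/- lymphomas. Above the highest normal thymus lay 8 of 10, 8 of 9 and 11 of 12 tumours. Rbl1 rose by 0.87 (SE 0.18, edgeR adjusted p = 0.000263), 0.69 (SE 0.18, edgeR adjusted p = 0.00206) and 0.84 (SE 0.18, edgeR adjusted p = 0.000223) on the log2 scale. All 3 calls were kept under 24 of 24 alternatives (2 of them exact tests with an unadjusted p) and ended when an absolute log2 fold change of at least 1 was also required. The normal thymuses themselves fell into 3 with 26.5 to 29.1 CPM (mice 387, 961 and 978) and 5 with 48.1 to 67.03 CPM. The sum of the 6 proliferation markers had a median of 1153 CPM in normal thymus (203.9 to 1881) and of 2056, 2351 and 2221 CPM in the lymphoma groups, and its part in the difference was not tested.

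Rbl2 encodes p130, the pocket protein of resting cells. Normal thymus had 74.99, 96.3 and 116.7 CPM (lowest, median, highest) and the p53+/- thymus 125 CPM. Untreated p53-/- lymphomas had 38.3, 66.2 and 158 CPM, treated p53-/- lymphomas 21.8, 47.8 and 121 CPM, and treated p53+/- lymphomas 31.99, 51.2 and 90.3 CPM. Below the lowest normal thymus lay 8 of 10, 8 of 9 and 10 of 12 tumours, while mouse 120 (158 CPM) and mouse 869 (121 CPM) were above the highest. It fell in both treated groups, and the p53+/- call ended when an absolute log2 fold change of at least 1 was also required. The log2 fold change was -1.13 (SE 0.26, edgeR adjusted p = 0.000593) in treated p53-/- and -0.99 (SE 0.25, edgeR adjusted p = 0.00127) in treated p53+/- lymphomas. In untreated p53-/- lymphomas it was -0.54 (SE 0.27, edgeR adjusted p = 0.105), which passed under 5 of 24 alternatives (2 of them exact tests with an unadjusted p), among them no scaling factors and limma voom. The difference of treated and untreated p53-/- lymphomas was -0.60 (95% interval -1.17 to -0.03, unadjusted p = 0.049, edgeR adjusted p = 0.426). Exons of Rbl2 overlap those of Aktip (693 bases) and Gm45464 (892 bases) on the opposite strand, so part of its counts is uncertain too.

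Between lymphoma groups no member was called. The background was 0.0% of 16389 genes called for treated against untreated p53-/- lymphomas, 0.0% for treated p53+/- against treated p53-/- lymphomas and 0.0% for treated p53+/- against untreated p53-/- lymphomas by edgeR. At an unadjusted p under 0.05 edgeR counted 1917, 864 and 1037 genes, of which 1, 0 and 0 were members, the 1 being Rbl2. DESeq2 called 76, 12 and 3 genes and limma voom 39, 1 and 1, with no member among them. Cdkn2a differed by 0.22 (95% interval -0.56 to 1.0), 0.02 (-0.72 to 0.76) and 0.23 (-0.71 to 1.17) on the log2 scale in these comparisons, and Rb1 by 0.21 (-0.32 to 0.74), -0.16 (-0.61 to 0.29) and 0.05 (-0.46 to 0.56). Cdkn1c had the widest intervals, -0.64 to 2.74, -1.18 to 1.56 and -0.31 to 2.79. A missed threshold does not show that the groups are alike, and differences within these intervals are not excluded.

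The partners and targets of these genes give the setting of the pathway. All 17 of 17 listed E2F target genes were called higher in each of the 3 lymphoma groups, with medians of 1.41, 1.60 and 1.61 on the log2 scale, beside 0.08, -0.04 and -0.00 over all genes tested. The background for the counts of this and the next 3 lists was 23.2%, 25.4% and 25.6% of all genes called higher and 17.5%, 26.7% and 25.3% called lower. Mcm6, a helicase subunit, rose by 2.19, 2.16 and 2.21, Cdc6, which loads that helicase, by 1.87, 2.05 and 1.97, and Tyms, which makes thymidylate, by 1.33, 2.16 and 2.10. Of 10 E2F and DP factors 6, 5 and 6 were higher and 0, 1 and 1 lower. E2f3 rose by 1.56, 1.57 and 1.54, and Tfdp1, a partner with which many E2F factors bind DNA, by 1.38, 1.55 and 1.38. Of 9 G1 cyclins and kinases 6, 7 and 6 were higher and 0, 0 and 1 lower. Cdk6, the kinase that INK4 proteins bind, rose by 1.33 (SE 0.37), 1.0 (SE 0.36) and 1.37 (SE 0.36), and Ccne2, a cyclin of Cdk2, by 1.09, 1.77 and 1.70. Of the 6 MuvB and DREAM partners, which join p130 or p107 in a repressor complex or join Mybl2 in an activating one, 4 were higher and 0 lower in each group, with Mybl2 up by 1.79, 1.82 and 2.08.

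Of 15 regulators of the Cdkn2a locus, 5, 5 and 6 were called higher and 3, 5 and 4 lower, with medians of 0.14, 0.05 and -0.18 beside 0.08, -0.04 and -0.00 over all genes tested. Over all genes 23.2%, 25.4% and 25.6% were higher and 17.5%, 26.7% and 25.3% lower, and a share near that background says nothing particular of these regulators. Bmi1 and Suz12, Polycomb proteins that repress this locus, rose by 1.12, 1.27 and 1.58 and by 1.27, 1.34 and 1.22. Kdm2b, a demethylase linked to Polycomb, rose by 1.04, 0.92 and 0.92. Id1 fell by 1.97 and 1.41 in untreated and treated p53-/- lymphomas and was at -1.02 (edgeR adjusted p = 0.0845) in treated p53+/- lymphomas. Of the 5 genes of the ARF, Mdm2 and p53 arm 1 was higher and 3 were lower in each group. Trp53, 1 of these 3, is the gene that the genotypes change, and Cdkn1a is a target of p53, so this count is not independent of the design. Npm1, the nucleolar partner of ARF, rose by 1.37, 1.60 and 1.55. Cdkn1a, the p53 target that encodes p21, fell by 1.75 (SE 0.43), 1.96 (SE 0.42) and 1.3 (SE 0.39), Trp53 by 1.08, 1.21 and 1.32 and Mdm4 by 0.53, 0.57 and 0.50, whereas Mdm2 was at 0.02, -0.15 and 0.01 and was not called. The genes said here to have risen or fallen had an edgeR adjusted p of at most 0.0434.

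Biopsies of a tumour resembled each other in these genes more than tumours did. Over 13 multifocal tumours the median SD of log2 CPM within a tumour was under the SD between tumours for 9 of 9 members, as it was for the median over all tested genes (0.28 within, 0.59 between). Cdkn1c had a median SD of 0.48 within and 1.92 between tumours, so that 87.4% of its variance lay between them, against 70.5% for the median gene. For Cdkn2a the values were 0.25 and 0.70 (76.1%), for Rb1 0.18 and 0.51 (72.1%), for Rbl2 0.22 and 0.50 (80.4%), and for Cdkn2b, the scarcest member, 0.59 and 0.81 (63.3%). In mouse 905 the 4 biopsies had 50.96, 42.2, 55.2 and 56.25 CPM of Cdkn1c, and in mouse 903 they had 0.230, 1.15, 1.05 and 0.292 CPM. These 2 tumours, both treated p53+/-, did not overlap in any biopsy.

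**Figure D3:**
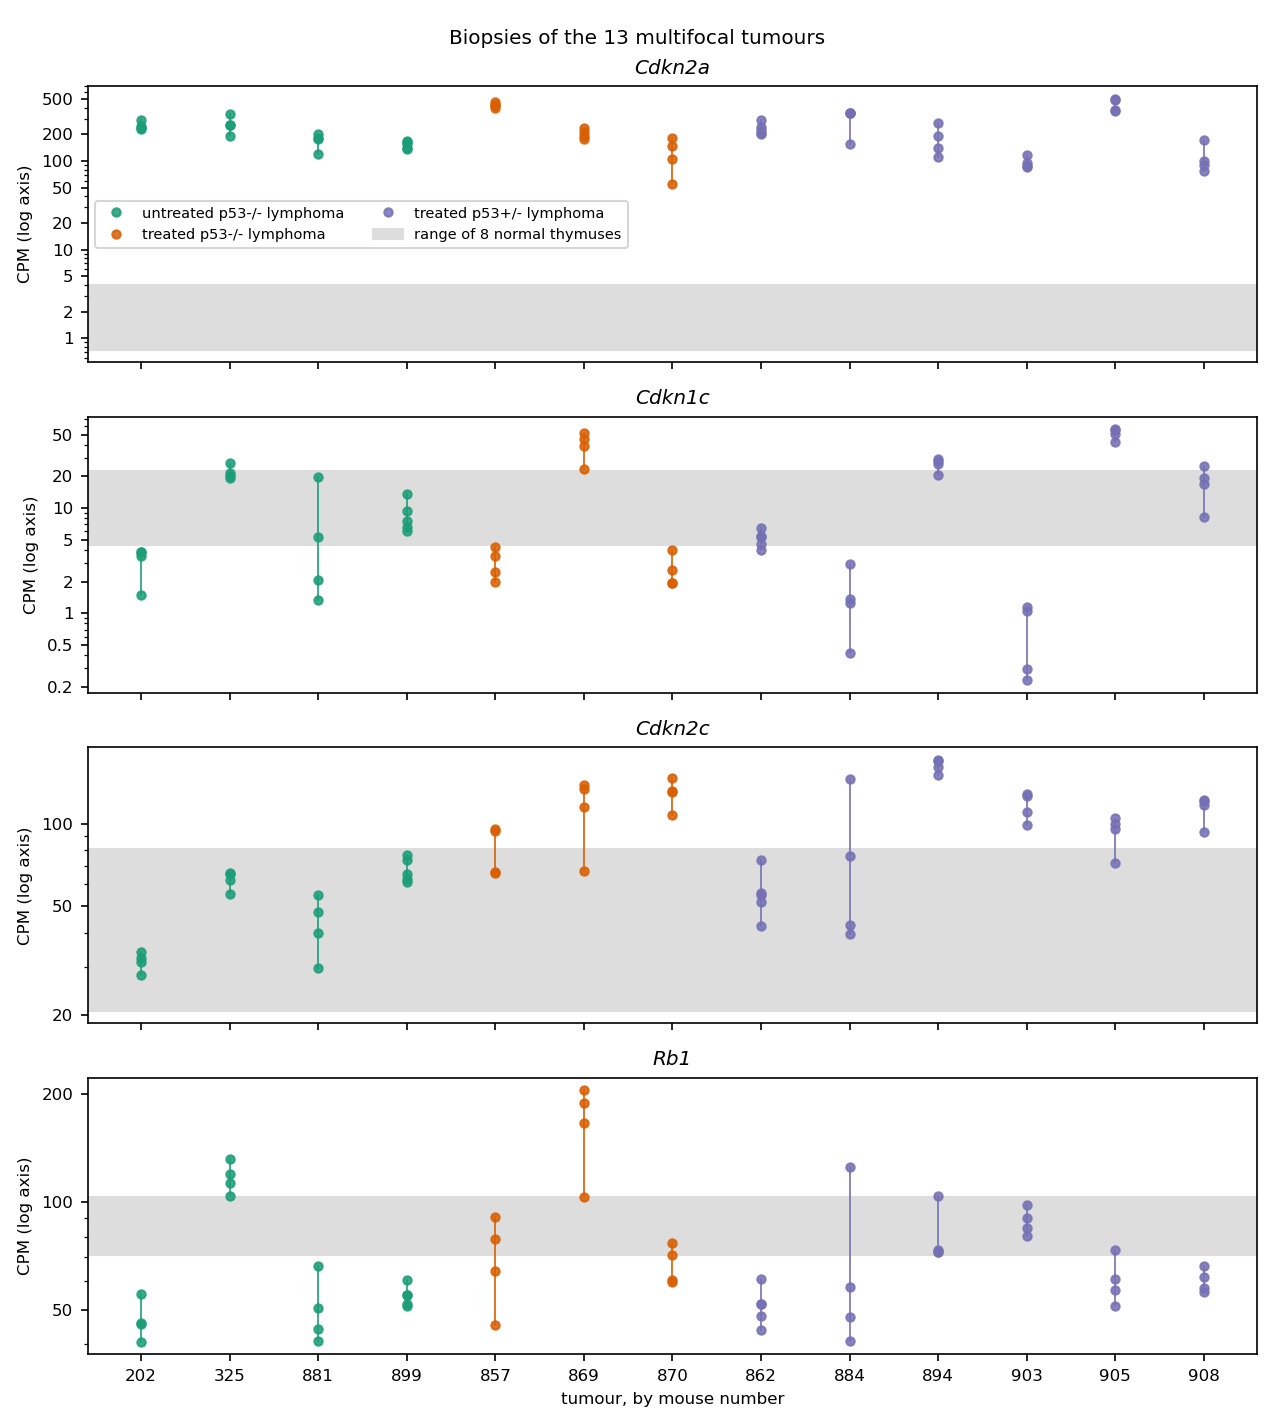
CPM of Cdkn2a, Cdkn1c, Cdkn2c and Rb1 on log axes in each biopsy of the 13 multifocal tumours, coloured by group. Points on a line are biopsies of 1 tumour, and the grey band is the range of the 8 normal thymuses. The 54 biopsies all lie above the band for Cdkn2a, and mouse 884 shows 1 biopsy apart from the rest for Cdkn2c and Rb1.

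Some tumours did differ by region. In mouse 884 (treated p53+/-), biopsy 2 had 154.6 CPM of Cdkn2a and biopsies 5, 6 and 8 had 343, 349 and 350 CPM. The same biopsy was highest for Cdkn2c (145.9 CPM against 42.5, 75.97 and 39.5 CPM) and for Rb1 (124.8 CPM against 40.9, 57.8 and 47.8 CPM). This tumour had the widest spread of the 13 in Cdkn2c, Cdkn2d, Cdkn1b, Rb1 and Rbl2 (SD 0.87, 0.61, 0.55, 0.71 and 0.50). Its stroma and vessel marker sum was 399.6 CPM in biopsy 2 and 1601, 1797 and 1352 CPM in the others, its B lineage sum 126.6 CPM against 25.9, 24.5 and 43.2 CPM, and its T lineage sum 2433 CPM against 1517, 1913 and 1382 CPM. Biopsy 2 lay outside the range of the other biopsies for 7 of the 8 marker lists (above it for 4 and below it for 3), and library totals were 13.18 M against 3.81, 11.39 and 5.22 M counts. The part of these in the regional difference was not tested. In mouse 870 (treated p53-/-) Cdkn2a took values of 54.9, 105.0, 146.7 and 179.4 CPM in biopsies 1, 3, 5 and 7, the widest spread of that gene (SD 0.75), and all were above the highest normal thymus. In mouse 881 Cdkn1c was at 2.06, 1.33, 5.32 and 19.7 CPM in biopsies 1, 3, 5 and 7, and the thymic epithelium marker sum there was 165.9, 28.9, 314.5 and 806.6 CPM. The sums of 3 of the 8 marker lists (thymic epithelium, T lineage and myeloid) ran in the same order of biopsies as Cdkn1c and those of 4 (B lineage, stroma and vessel, proliferation and erythroid) in the reverse order. The part of these cells in the Cdkn1c values was not tested.

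The median expression of whole chromosomes differed between tumours, and each member was set beside the median log2 ratio to normal thymus of the other genes of its chromosome. This is a measure of expression, and DNA copy number was not measured. Over 31 lymphomas Rb1 followed chromosome 14 (Pearson's r = 0.74, Spearman's rho = 0.73, permutation p = 1e-05 for each, the smallest that 100000 resamples can give, adjusted p = 6.5e-05 and 0.00013 over 13 relations). Without the 2 mice farthest from the median r was 0.67, and within the 3 groups it was 0.83, 0.67 and 0.55. Cdkn2c followed chromosome 4 (r = 0.70, permutation p = 1e-05, adjusted p = 6.5e-05, and rho = 0.67, permutation p = 4e-05, adjusted p = 0.00026), with r = 0.68 without the 2 farthest mice and 0.49, 0.56 and 0.81 within groups. Cdkn2a on the same chromosome did not (r = 0.11, rho = 0.19, permutation p = 0.555 and 0.310, adjusted p = 0.802 and 0.577). Cdkn2b had r = -0.44 and rho = -0.44 (permutation p = 0.0125 and 0.0137, adjusted p = 0.0540 and 0.0591), with r = -0.42 without the 2 farthest mice and -0.48, -0.17 and -0.35 within groups. Without centring per mouse its r was -0.48 and passed (adjusted permutation p = 0.0261). For Cdkn2d, Cdkn1b, Cdkn1c and Rbl1 r lay between -0.12 and 0.12, and for Rbl2 it was 0.31 (rho = 0.37, adjusted permutation p = 0.200 and 0.0944).

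**Figure D4:**
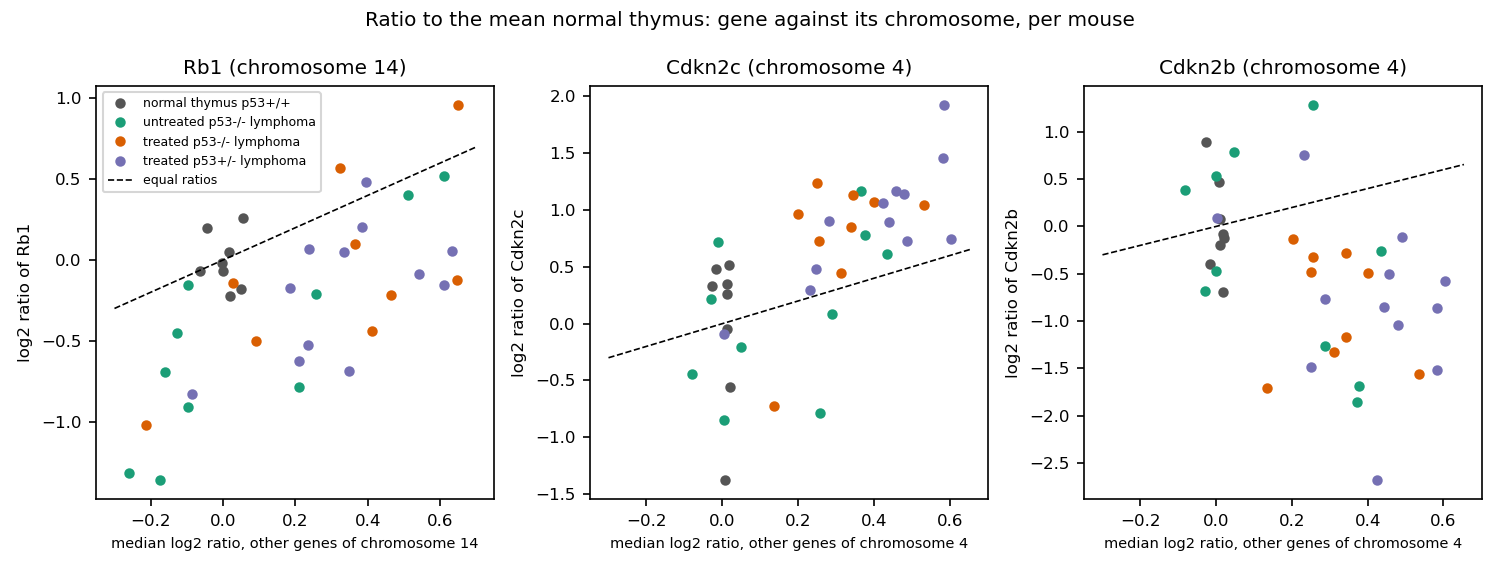
Log2 ratio of Rb1, Cdkn2c and Cdkn2b to the mean normal thymus (vertical) against the median log2 ratio of the other genes of the same chromosome (horizontal), 1 point per mouse, coloured by group. The dashed line marks equal ratios. Rb1 lies under the line in 28 of 31 lymphomas and Cdkn2c above it in 24 of 31.

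Set against their chromosomes, some members looked different from their plain fold change. This comparison was added after the values were seen, and its p-values are unadjusted. The median ratio of the other 649 genes of chromosome 14 was -0.10, 0.37 and 0.34 in the 3 lymphoma groups (untreated p53-/- first, treated p53+/- last), and that of the other 1081 genes of chromosome 4 was 0.15, 0.31 and 0.45. Rb1 lay under its chromosome in 28 of 31 lymphomas. Its difference from normal thymus on this relative scale was -0.56, -0.39 and -0.51 (exact 2-sided permutation p = 0.00361, 0.0391 and 0.00149). Cdkn2b lay under chromosome 4 in 25 of 31, with differences of -0.48, -1.13 and -1.19 (exact permutation p = 0.300, 0.000864 and 0.00436). For Cdkn2c the relative differences were -0.03, 0.45 and 0.50 (exact permutation p = 0.933, 0.148 and 0.0399), and for Rbl2 they were -0.58, -1.13 and -0.83 (exact permutation p = 0.0133, 0.000823 and 0.00023). Rbl1 was above chromosome 2 in 31 of 31 lymphomas.

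Of the 4 relations fixed between members and with cell division, none passed adjustment over the pooled lymphomas. Cdkn2a with Rb1 gave r = 0.03 and rho = 0.03 (permutation p = 0.857 and 0.876, adjusted p = 0.883 and 0.949), r = 0.04 without the 2 farthest mice, and 0.01, 0.30 and -0.37 within groups. Cdkn2a with Cdkn2b gave r = 0.41 and rho = 0.38 (permutation p = 0.0234 and 0.0360, adjusted p = 0.0760 and 0.0943), r = 0.39 without the 2 farthest mice, and 0.35, 0.59 and 0.58 within groups. Rbl1 with the mean of the proliferation markers gave r = 0.37 and rho = 0.38 (permutation p = 0.0437 and 0.0363, adjusted p = 0.114 and 0.0943), r = 0.51 without the 2 farthest mice, and 0.33, 0.51 and 0.58 within groups. Cdkn1b with the same mean gave r = 0.07 and rho = 0.10 (permutation p = 0.700 and 0.598, adjusted p = 0.883 and 0.830), r = 0.03 without the 2 farthest mice, and 0.31, -0.39 and 0.45 within groups. With residuals from the group means, Cdkn2a with Cdkn2b (r = 0.47, adjusted permutation p = 0.0313) and Rbl1 with proliferation (r = 0.45, adjusted permutation p = 0.0344) passed.

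The genes whose levels ran most like each member over the 31 lymphomas were ranked by Spearman's rho among 11144 genes, as a description. For Rb1 the nearest were Esco2 (rho 0.85), Polr3a (0.84) and Wapl (0.83), all on chromosome 14 like Rb1. For Cdkn2c they were Kif2c (0.83), Smc2 (0.80) and Arhgef39 (0.79), all on chromosome 4 like Cdkn2c. For Cdkn2a they were Nop10, Selenoh and Set (0.69 each), all on chromosome 2, while Cdkn2a is on chromosome 4. Rbl1 had Usp20 (0.74), Nol6 (0.70) and Mcm2 (0.68, a listed E2F target), and Rbl2 had Rnf166 (0.70), Gm45606 (0.67) and Aff4 (0.66). Cdkn2b ran most like Mpzl2 (0.71), Tmc4 (0.67) and Nab2 (0.65), Cdkn2d like Sys1 (0.77), Sit1 (0.75) and Zfp335os (0.75), Cdkn1b like Lysmd1 (0.74) and Rlf (0.72), and Cdkn1c like Neto2 (0.72), Ercc6l (0.65) and Scrn1 (0.64). Among the members themselves the highest rho was 0.70, between Cdkn2c and Rb1, and the lowest -0.56, between Cdkn2b and Rb1.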

How the data were processed

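Expected counts per gene, as RSEM estimates them, were deposited by the authors in 1 table (51826 genes, 81 libraries), of which 14.25% of cells were not whole. Per the submitters' processing notes the tools were CASAVA 1.8, fastp, STAR 2.7.2b and RSEM 1.1.17, with mm10. Expected counts were rounded, and the biopsies of a mouse were summed, since the mouse was the replicate. The members and lists were chosen with earlier results of these data known. edgeR 4.0.16 (TMM, filterByExpr, robust quasi-likelihood fit, labelled sex as covariate) was run on 8 normal thymuses with 31 lymphomas (17843 genes) and on the lymphomas alone (16389 genes). Code was tested on simulated data. DESeq2 1.42.0 and limma 3.58.1 (voom) were alternatives. Log2 CPM used a prior count of 2. The chromosome measure used 17184 autosomal genes tested against normal thymus, centred per mouse. Correlations used 100000 resamples, and group differences on the chromosome scale an exact permutation test. Named genes were the 9 members, up to 3 called genes per list and comparison with the largest fold change and a mean log2 CPM of at least 2, and 3 genes most like each member, of which 1 is not reported here. Other genes named for the count of a list were chosen after their values were seen. Gene models came from GENCODE M21 (GRCm38), which held 99.63% of gene IDs. Promoters matched 7 of 9 members. Rounded totals ranged from 1.03 to 26.87 M counts per library, which limits scarce genes most. The lowest counts in a mouse were 5 for Cdkn1c (mouse 643), 9 for Cdkn2a (normal mouse 818) and 11 for Cdkn2b. The fold changes of Cdkn2a thus rest on low counts in normal thymus.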

Additional observations from a re-analysis of the deposited data

Results flagged for a closer look

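Over 144 groups looked at (27 groups of 8 to 10 mice, the rest sets of 4 or 5 biopsies of a tumour), 13 values stood far from the rest of their group by Dixon's ratio on log2 CPM. The treated p53+/- group of 12 mice was not among them, so its mice were not screened. Chance flags about 1 in 20 groups. Among mice, Cdkn2a was lowest in mouse 98 of the untreated p53-/- lymphomas (24.9 CPM, others 148 to 358). Cdkn2c was lowest in mouse 663 of the treated p53-/- lymphomas (35.4 CPM, others 81.4 to 138). In normal thymus mouse 387 was lowest for Cdkn2d (24.1 CPM, others 63.1 to 111.5) and for Cdkn1b (71.4 CPM, others 107.6 to 155), and this thymus also had the highest B lineage and fat marker sums of its group, whose part in these values was not tested.

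Among biopsies, biopsy 2 of mouse 884 was lowest for Cdkn2a (154.6 CPM, others 343 to 350.0). Cdkn2d was lowest in biopsy 5 of mouse 857 (79.2 CPM, others 101.8 to 107.0), biopsy 7 of mouse 881 (53.4 CPM, others 81.2 to 82.7) and biopsy 7 of mouse 899 (31.6 CPM, others 39.5 to 42.3). Cdkn1c was lowest in biopsy 7 of mouse 202 (1.48 CPM, others 3.48 to 3.85). Rb1 was highest in biopsy 1 of mouse 894 (103.9 CPM, others 72.5 to 73.3). Rbl1 was lowest in biopsy 9 of mouse 862 (82.8 CPM, others 102.2 to 106.0) and highest in biopsy 5 of mouse 894 (128.4 CPM, others 111.3 to 113.0) and in biopsy 7 of mouse 903 (137.4 CPM, others 126.3 to 127.0).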

How the results depend on the processing

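Of 1080 fold changes of members recomputed under alternatives, 38 changed sign, and 0 of these belonged to a called value. The cause was not tested for any. Cdkn2b in untreated p53-/- lymphomas against normal thymus turned to 0.02 with sex from expression, 0.05 without the 3 mice of discordant sex, 0.02 with single-biopsy tumours only, 0.04 without mouse 857, 0.01 with the p53+/- thymus joined, and ranged from -0.18 to 0.14 over single normal thymuses left out (0.14 without 387, 0.04 without 978). Against normal thymus, Cdkn2c turned to -0.03 relative to its chromosome in untreated p53-/-, Rb1 to 0.03 without mouse 857 in treated p53-/- and Cdkn1c to -0.12 with voom in treated p53+/- lymphomas. Between treated and untreated p53-/- lymphomas Cdkn2a turned to -0.08 without mouse 857 and Cdkn2d to -0.01 with single-biopsy tumours. Between treated p53+/- and treated p53-/- lymphomas, Cdkn2a turned to -0.04 without scaling, -0.01 without sex, -0.03 with sex from expression, -0.06 without the 3 mice, -0.12 with 2 groups, -0.05 with normal thymuses in the fit, -0.04 with voom, -0.07 with the exact permutation test and -0.19 relative to its chromosome. There Cdkn2b turned to -0.06 relative to its chromosome, Cdkn2d to 0.01, 0.03, 0.16 and 0.09 (sex from expression, without the 3 mice, single-biopsy tumours, relative to its chromosome), Cdkn1c to -0.24, -0.17, -0.57, -0.35 and -0.45 (sex from expression, without the 3 mice, voom, exact permutation, relative to its chromosome) and Rb1 to 0.16 with single-biopsy tumours. Between treated p53+/- and untreated p53-/- lymphomas the fit of 2 groups turned Cdkn2a to -0.22, Cdkn2d to -0.09 and Cdkn1b to -0.07, the fit without sex turned Cdkn1b to -0.03, and Rbl1 turned to 0.05 (exact permutation) and 0.06 (relative to its chromosome).

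Requiring an absolute log2 fold change of at least 1 left 2 members called in untreated p53-/- (from 4) and 2 in treated p53+/- lymphomas (from 5). Between treated and untreated p53-/- lymphomas 1 member (Cdkn1c) passed relative to its chromosome, and for treated p53+/- against untreated p53-/- lymphomas 1 (Cdkn2c) passed with the exact permutation test and 1 (Cdkn2c) relative to its chromosome, from 0. These exact p-values were not adjusted, and the exact tests had no term for sex. By label 9 of 10 untreated p53-/- and 3 of 12 treated p53+/- mice were male, so sex and group go together there. Over single normal thymuses left out, members called ranged from 3 to 4, 4 to 5 and 5 to 5, and over all 25 alternatives from 2 to 6, 3 to 6 and 2 to 7. With residuals from group means Pearson's r of Cdkn2a with Rb1 became -0.01, of Cdkn2a with Cdkn2b 0.47 and of Rbl1 with proliferation 0.45, the last 2 past the threshold. Members correlated with their chromosome numbered 2 (Rb1 and Cdkn2c), and 3 without centring, where Cdkn2b passed as well. The mice were different animals in each group. No paired analysis was possible because the groups share no mouse numbers. Scarce genes such as Cdkn2b are limited by depth.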
